A study of Sus scrofa with 6 samples.

Results

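The 10 genes described here encode the main checkpoint receptors of T cells and the proteins most used to recognise regulatory T cells. They were chosen by symbol among the 20648 genes of the deposited matrices, and all 10 were present. PDCD1 (PD-1), LAG3, CTLA4, TIGIT and HAVCR2 (TIM-3) are inhibitory receptors, CD28 and ICOS are costimulatory receptors, FOXP3 and TOX are transcription factors, and IL2RA (CD25) is the alpha chain of the interleukin-2 receptor. Single-cell transcriptomes came from the ileum of male piglets aged 0, 1, 3, 7, 14 and 21 days that stayed with their mothers, with 1 library per age. No genotype or treatment set the ages apart. Barcodes with at least 1000 UMIs (unique molecular identifiers, each counting 1 captured RNA molecule) and at least 500 genes numbered 76099, between 10836 and 15956 per library. T cells were taken as barcodes with at least 2 UMIs of CD3E and CD3G together and none of MS4A1 or PAX5, the B cell genes. This gate held 4841 cells, with 1872, 1653, 349, 432, 357 and 178 at days 0, 1, 3, 7, 14 and 21.

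A T cell that meets antigen needs a signal through CD28 to become active, and CTLA4 competes with CD28 for the same ligands, CD80 and CD86. Activated cells add ICOS, IL2RA and a set of brakes: PD-1 recruits phosphatases, LAG3 and TIGIT dampen signalling, and TIM-3 marks strongly activated effector cells and is also carried by myeloid cells. Regulatory T cells depend on FOXP3 and keep IL2RA and CTLA4 at high levels, TOX acts in thymic development and in chronically stimulated T cells, and follicular helper T cells, which support B cells in Peyer's patches, carry much PD-1 and ICOS. In the pig a CD4 T cell can add CD8 alpha on activation, so that both chains on 1 cell are a regular class there.

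On the pig assembly Sscrofa11.1, 3 of the genes lie beside each other on chromosome 15, with CD28 at 107128103-107155431, CTLA4 at 107283081-107288041 and ICOS at 107350253-107370123. PDCD1 is on the same chromosome at 140337353-140347493. LAG3 at 63929669-63935054 of chromosome 5 neighbours CD4 at 63892129-63918547. FOXP3 is on chromosome X at 43303777-43328164, TOX on chromosome 4 at 73810180-74115352, IL2RA on chromosome 10 at 64948149-65001320, TIGIT on chromosome 13 at 145673646-145799024 and HAVCR2 on chromosome 16 at 66138157-66160568. All 10 are annotated as protein-coding.

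Library totals ran from 77391932 to 100348769 UMIs. The median T cell held 3523, 4192, 4499, 4279.5, 2958 and 2587 UMIs from day 0 to day 21, and the median B cell between 3640 and 4804. Any 2 libraries shared 31 to 68 kept barcodes, at most 0.508% of the smaller library, where random draws from the barcode list would share 18.1 to 32.5. The 7 T cell markers outside the gate (CD3D, CD2, CD5, CD6, CD247, LCK, BCL11B) summed to 453, 468, 791, 1125, 1126 and 1276 CPM in the gated cells (UMIs of a gene or list in every 1000000 UMIs of a cell class). The gated cells thus held T cell RNA at every age, and the marker sum was higher in the later libraries. Whether this reflects the purity of the gated cells or the marker RNA per T cell was not tested. Epithelial markers summed to 775 and 212 CPM in T cells at days 0 and 1 and to between 18.6 and 36.8 later, while in barcodes of 100 UMIs or fewer, which hold mostly free RNA, they stood at 1487 and 845. Intervals are exact 95% Poisson intervals for levels and exact Clopper-Pearson intervals for shares of cells, and cover counting error only. The make-up of the libraries also differed by age. B cells numbered 1471, 2489, 6806, 9309, 13780 and 12134 of the kept barcodes from day 0 to day 21. Epithelial cells numbered 2816, 1214, 114, 238, 24 and 1, and stromal cells 268, 370, 158, 0, 3 and 2. With 1 library per age, age, batch, animals and the make-up of the sampled tissue cannot be told apart, and no difference between ages was tested.

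Between cell types, PDCD1, CTLA4, TIGIT, FOXP3 and CD28 had higher levels in T than in B cells, and HAVCR2 was more abundant in myeloid cells. Sums over all ages mix libraries in which the lineages were unequally common. On them, PDCD1 stood at 50.5 CPM in T cells and at 1.27 in B cells, the most numerous lineage (45989 cells). CD28, the first costimulatory receptor, had 330 UMIs in 4841 T cells and 7 in the B cells, and CTLA4 had 189 and 13. FOXP3 stood at 6.20 CPM in T cells and 0.545 in B cells, from 150 UMIs in 104 T cells and 139 in 137 of the far more numerous B cells. TIGIT stood at 9.83 and 0.470. LAG3 stood at 50.9 CPM in T cells and 0.564 in B cells, ICOS at 42.2 and 5.77, TOX at 131 and 17.1, and IL2RA at 61.5 and 14.7. For these 4 no order of the lineages is given, since 1 further lymphoid class is not described here.

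HAVCR2 stood at 80.4 CPM in 1030 myeloid cells and at 4.83 in T cells over all ages. TOX was also found in epithelial cells, at 44.8 CPM over all ages and at 138 in the 114 epithelial cells of day 3.

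**Figure D1:**
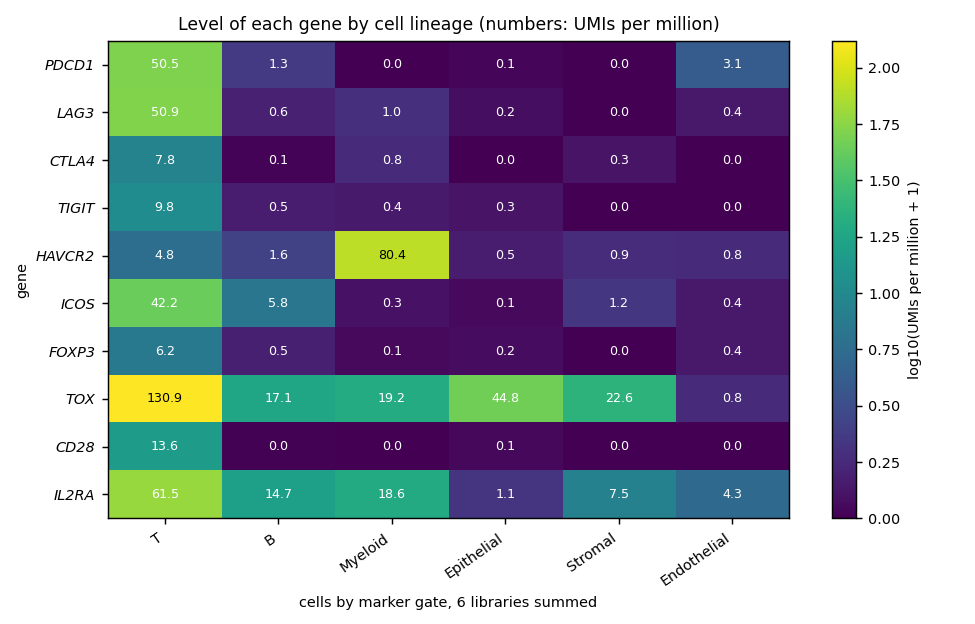
Level of each of the 10 genes (rows) by cell lineage (columns), summed over the 6 libraries, with CPM as numbers and the colour on a log10 scale. The columns are not all lymphoid classes. HAVCR2 is at 80.4 in myeloid cells and 4.83 in T cells, while PDCD1 and CD28 are higher in T cells than in the other lineages drawn.

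T cells were then tested against B cells of the same libraries, with counts summed per library and cell class, edgeR's quasi-likelihood test and the library as a block, so that each library was its own control. The 6 libraries stand for 6 ages, each with 5 piglets of its own. How their cells were combined is not stated in the sources used here, and p-values measure the spread between these libraries. All 10 genes were called higher in T cells, where 12.1% of the 15106 genes tested were called higher and 14.6% lower. At day 1 HAVCR2 was lower in T cells, at 1.99 against 2.20 CPM. Levels read below as background or close to it, HAVCR2 at days 0 and 1 and IL2RA at day 0, entered the test. The fitted log2 differences ran from 1.68 for IL2RA (edgeR adjusted p = 0.0014) and 2.35 for HAVCR2 (adjusted p = 0.0094) to 7.15 for PDCD1, 7.74 for LAG3, 8.23 for CTLA4 and 8.26 for CD28. B cells serve below as the cells that should lack most of these genes. IL2RA and ICOS were the exceptions with TOX, found in 3.48% to 10.8%, 1.21% to 5.34% and 1.73% to 10.5% of B cells by library.

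By age, the inhibitory receptors stood lower in T cells of days 0, 1 and 3 than in those of days 7, 14 and 21. PDCD1 stood at 5.09, 12.9, 22.0, 232, 256 and 210.2 CPM at days 0, 1, 3, 7, 14 and 21. LAG3 stood at 3.50, 11.0, 23.1, 278, 179.7 and 264. Both stepped up between days 3 and 7, where the ratio of the libraries was 10.5 for PDCD1 (interval 7.68 to 14.8) and 12.0 for LAG3 (8.88 to 16.7), and neither kept climbing after day 7. In barcodes of 100 UMIs or fewer PDCD1 was between 1.06 and 10.6 and LAG3 between 1.37 and 14.0.

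The other 3 inhibitory receptors were scarcer and were also higher from day 7 on. CTLA4 stood at 1.59, 6.32, 1.05, 27.0, 24.7 and 35.3 CPM, from 15, 54, 2, 66, 33 and 19 UMIs. TIGIT stood at 2.33, 1.40, 10.5, 45.0, 35.2 and 50.2, so that it was already higher at day 3, and the ratio of day 7 to day 3 was 4.29 (2.65 to 7.30). HAVCR2 stood at 1.38, 1.99, 5.77, 20.9, 11.2 and 18.6, and at days 0 and 1 it was lower in T cells than in the near-empty barcodes of the same libraries, which held 2.74 and 7.02. HAVCR2 at those ages is read as background.

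The costimulatory receptors went separate ways. ICOS, which activation adds, stood at 17.3, 29.9, 33.0, 124, 103 and 186 CPM, 7.18 times higher at day 7 than at day 0 (interval 5.92 to 8.74) and 10.8 times higher at day 21. CD28, which resting T cells already carry, stood at 8.80, 21.3, 8.39, 9.42, 13.5 and 14.9. Its ratio of day 7 to day 0 was 1.07 (0.644 to 1.72), and its highest library was day 1.

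FOXP3 stood at 2.33, 5.03, 8.92, 21.7, 6.74 and 11.2 CPM, with its highest value at day 7. There 31 of its 53 UMIs lay in 13 T cells with a CD4 UMI. At equal depth the day 7 peak was not clear, as given below. IL2RA stood at 36.0, 81.4, 80.2, 83.9, 59.9 and 29.8 CPM, a plateau on this scale from day 1 to day 7 with lower values at both ends. Per 1000 UMIs of the T cell markers, the scale used below, it was 173.7, 101.5 and 74.6 at days 1, 3 and 7, with no plateau. The day 21 library was at 0.355 of the day 7 level (0.199 to 0.590). IL2RA in near-empty barcodes was 23.3, 30.0, 59.7, 15.7, 11.8 and 7.19, close to the T cell level at day 3 and well under it from day 7. TOX was already high at birth, at 141, 71.6, 155, 156, 293 and 298 CPM, and stood 2.11 times higher at day 21 than at day 0 (1.78 to 2.49), but at 0.751 of day 0 when set against the T cell markers, as given next.

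Counted against all genes, 8 of the 10 were at least 2-fold higher at day 7 than at day 0 (all but TOX and CD28), where 12.0% of the 11716 genes with at least 20 UMIs in the 2 libraries were, a floor that all 10 met, and none was at least 2-fold lower, where 21.2% of genes were. At day 21 against day 0, 8 of 10 were again at least 2-fold higher (all but CD28 and IL2RA), against 15.9% of genes, and none was at least 2-fold lower, against 23.0%. The day 0 level of HAVCR2 is read as background and that of IL2RA as close to it. Their ratios to day 0, here and on the next scale, are thus not ratios of T cell levels. Since T cell markers were higher in later libraries too, the UMIs were set per 1000 UMIs of the 7 markers, a scale added after the levels had been seen. On it the day 7 to day 0 ratio was 18.4 for PDCD1, 32.0 for LAG3, 6.85 for CTLA4, 7.79 for TIGIT, 6.11 for HAVCR2, 2.90 for ICOS and 3.75 for FOXP3, while it fell below 1 for TOX (0.445), CD28 (0.432) and IL2RA (0.939), whose direction thus depends on the scale. At day 21 it was 14.7 for PDCD1, 26.8 for LAG3, 7.90 for CTLA4, 7.66 for TIGIT, 4.8 for HAVCR2, 3.83 for ICOS and 1.70 for FOXP3, and 0.751 for TOX, 0.601 for CD28 and 0.294 for IL2RA.

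**Figure D2:**
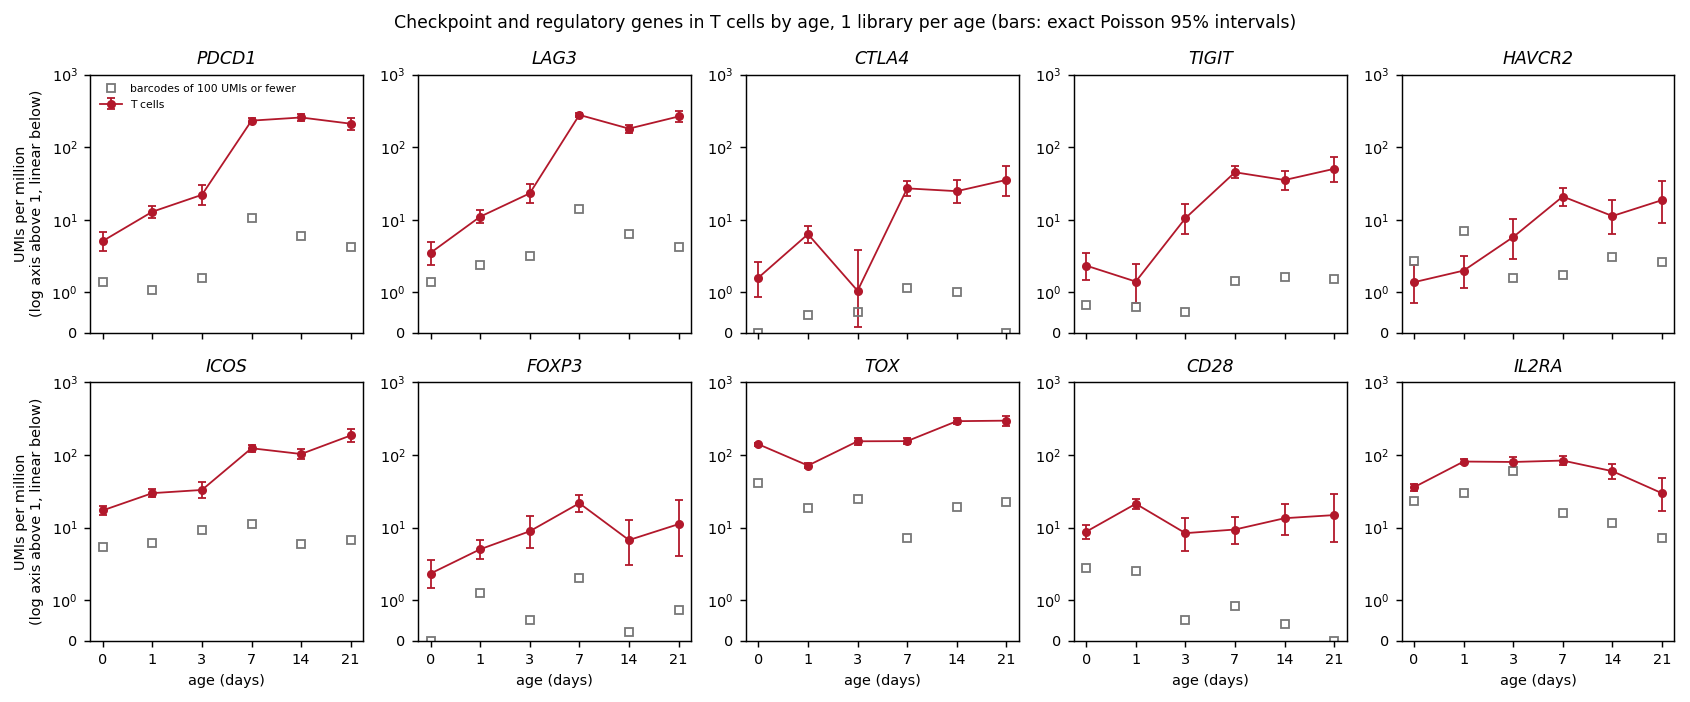
Level of each gene in T cells by age, in CPM of T cells on an axis that is logarithmic above 1 and linear below, with exact 95% Poisson intervals. Open squares are barcodes of 100 UMIs or fewer. PDCD1, LAG3, CTLA4, TIGIT, HAVCR2 and ICOS step up between day 3 and day 7, CD28 stays within 8.39 to 21.3, and TOX is at 71.6 or above in every library.

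The share of T cells with at least 1 UMI showed the same step. PDCD1 was found in 1.92%, 5.26%, 7.16%, 39.1%, 32.8% and 28.7% of T cells and in 0 to 1.21% of B cells. LAG3 was found in 1.44%, 3.02%, 5.73%, 40.7%, 28.9% and 29.8%, and in 0.0680% to 0.356% of B cells. With each cell thinned to 1000 UMIs, which removes differences in depth, PDCD1 was left in 0.641%, 1.15%, 2.29%, 16.4%, 16.8% and 14.6% of T cells and LAG3 in 0.481%, 0.968%, 2.01%, 17.8%, 14.8% and 17.4%. The step between days 3 and 7 was thus present at equal depth for PDCD1 and LAG3. ICOS reached 31.2% of T cells at day 7 from 7.00% at day 0, and FOXP3 was never found in more than 6.48%. IL2RA at day 0 was found in 7.91% of T cells and 7.48% of B cells, at 36.0 and 26.7 CPM. Over all T cells it is read as close to background there. Since B cells can carry IL2RA, this likeness does not settle the point. T cells of that library with a FOXP3 UMI, given below, stood higher.

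T cells also came to carry several of these genes together. The share with UMIs of at least 3 of the 10 genes was 2.14%, 4.54%, 7.45%, 39.4%, 28.3% and 24.7% by age. The share with none of them was 48.5%, 47.5%, 39.0%, 19.9%, 23.5% and 23.0%. These shares were not thinned, and the part of depth in them was not tested.

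**Figure D3:**
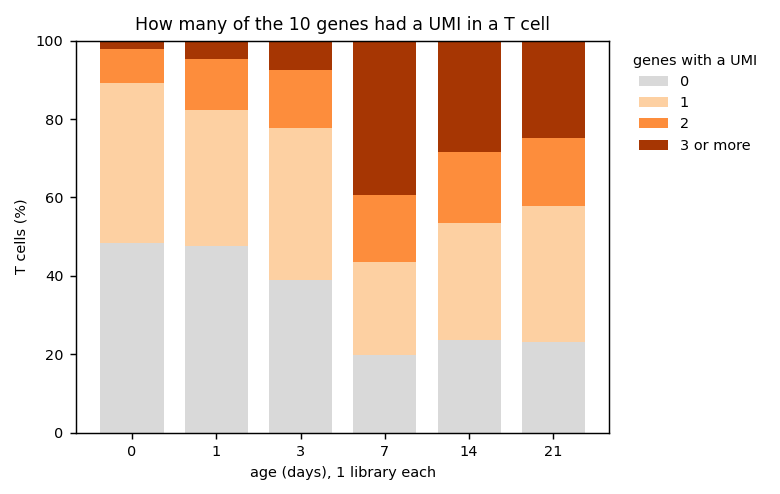
Share of T cells of each age by how many of the 10 genes had at least 1 UMI in the cell. Cells with 3 or more of them make up 7.45% at day 3 and 39.4% at day 7.

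Among T cells with a UMI of only 1 of the coreceptors, those with CD4 had more PDCD1, ICOS, CD28 and CTLA4 than those with CD8A. There were 532 CD4+ cells (111, 214, 67, 83, 34 and 23 by age) and 649 CD8A+ cells (210, 128, 52, 106, 102 and 51), and most T cells, 3612, had a UMI of neither. The classes are set by captured coreceptor RNA and are not pure helper and cytotoxic lineages. A CD8A+ cell can be a cell of both chains whose CD4 RNA was not captured. How many were was not tested, and this bears on all values of the CD8A+ class below. edgeR with the library block called 4 of the 10 genes higher in CD4+ cells, where 1.01% of the 10345 genes tested were higher and 2.06% lower, and none of the 10 lower.

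PDCD1 stood at 35.6, 19.1, 16.8, 397, 747 and 439 CPM in CD4+ cells and at 3.41, 2.74, 27.6, 153, 155 and 128 in CD8A+ cells. CD4+ cells were higher in 5 of 6 libraries, all but day 3, by a log2 difference of 1.81 (SE 0.27, edgeR adjusted p = 0.00051). ICOS stood at 45.5, 44.7, 40.7, 172, 221 and 232 against 9.37, 12.3, 34.5, 79.7, 82.1 and 150.2, higher in 6 of 6 libraries by 1.29 (SE 0.23, edgeR adjusted p = 0.0028). Both genes were far higher from day 7 on in both classes, so the ranges of the classes overlap across ages and the difference lies within libraries.

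CD28 stood at 21.8, 24.0, 14.4, 19.3, 28.5 and 36.6 CPM in CD4+ cells and 2.56, 12.3, 3.45, 6.38, 8.88 and 16.7 in CD8A+ cells, higher in 6 of 6 libraries by 1.68 on the log2 scale (SE 0.40, edgeR adjusted p = 0.021). CTLA4 was higher in 6 of 6 by 1.72 (SE 0.46, edgeR adjusted p = 0.048), with its widest gap at day 21, 122 against 5.56. Few CTLA4 UMIs lay behind this, 3, 29, 2, 16, 6 and 10 in CD4+ cells against 3, 2, 0, 11, 10 and 1 in CD8A+ cells. The 29 of day 1 lay in 6 cells. The calls of CD28 and CTLA4 are the weaker ones. CD28 lost its call without day 0, 3 or 7 (edgeR adjusted p up to 0.094). CTLA4 lost its call without day 1, 3, 14 or 21 (up to 0.183), and DESeq2 called neither (0.102 and 0.124). With days 0 and 1 left out together, a setting added after the levels had been seen, neither was called, while TIGIT, FOXP3 and LAG3 were.

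The remaining 6 did not pass. LAG3 was found in both classes, at 0, 11.6, 7.18, 298, 341 and 634 CPM in CD4+ cells and 3.41, 17.8, 38.0, 262, 159.8 and 117 in CD8A+ cells, with CD4+ cells higher in 3 of 6 libraries (log2 difference 0.55, edgeR adjusted p = 0.647). HAVCR2 stood in CD4+ cells at 1.98, 1.66, 2.39, 16.1, 14.2 and 0 against 5.11, 2.74, 6.90, 47.8, 17.8 and 33.4 (log2 difference -1.33, SE 0.49, edgeR adjusted p = 0.222). Days 0 and 1 are background for HAVCR2 and give no direction. In the other 4 libraries it was lower in CD4+ cells, and the fit on those 4 gave -1.47 (edgeR adjusted p = 0.115). TIGIT (1.47, edgeR adjusted p = 0.090) and FOXP3 (1.62, adjusted p = 0.128) leaned to CD4+ cells without passing. A FOXP3 UMI was found in 27 of 532 CD4+ cells and in 12 of 649 CD8A+ cells.

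IL2RA was not called (0.40, edgeR adjusted p = 0.832), and no difference is read from its early libraries, where near-empty barcodes held 23.3, 30.0 and 59.7 CPM at days 0, 1 and 3. In CD4+ cells it stood at 31.7, 57.2, 23.9, 127, 64.0 and 36.6 CPM and in CD8A+ cells at 32.4, 61.6, 96.7, 25.5, 39.9 and 0.

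The step between the early and the later libraries was seen for PDCD1 within both coreceptor classes. It was 11.2 times (6.91 to 19.1) higher at day 7 than at day 0 in CD4+ cells and 44.9 times (17.0 to 168) higher in CD8A+ cells. LAG3 was 76.7 times higher (29.4 to 285) in CD8A+ cells and had no UMI in CD4+ cells of day 0. At day 21 LAG3 was at 2.13 times its day 7 level (1.53 to 2.91) in CD4+ cells and 0.447 times (0.269 to 0.706) in CD8A+ cells. For PDCD1 these ratios were 1.10 (0.756 to 1.57) and 0.836 (0.506 to 1.33). At day 14 PDCD1 in CD4+ cells was at 1.88 times its day 7 level (1.48 to 2.37). IL2RA, close to background over all T cells at day 0, had no UMI in the 51 CD8A+ cells of day 21. With 1 library an age none of these ratios was tested.

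Genes of related programmes give the context. Of 11 regulatory T cell partner genes tested, 5 were called higher in CD4+ cells, among them TNFRSF4 (OX40, log2 2.79), IL10 (2.47) and CCR4 (2.71), and 2 lower, IKZF2 (Helios, -1.49) and ENTPD1 (CD39, -2.06). The median of the list was 0.93, against -0.02 for all genes. Of 12 cytotoxic genes, 9 were called lower and none higher, with CCL5 at -5.17 and NKG7 at -3.51. CCR7 and S1PR1, receptors of recirculating cells, were higher among 8 naive and recirculating genes, and none of 11 follicular helper and TOX-related genes was called. Without day 1, 2 of 10 follicular helper genes were higher and 2 lower. IL10 lost its call without day 14, ENTPD1 without day 3, 7 or 14, CCR7 without day 3 and S1PR1 without days 0 and 1.

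T cells with UMIs of both CD4 and CD8A were too few to set apart. Only days 7 and 14 had 10 or more of them, 21 and 10 cells. PDCD1 stood there at 416 and 901 CPM, against 397 and 747 in CD4+ cells without CD8A. FOXP3 had no UMI in these 31 cells, against 49.9 and 14.2 in CD4+ cells. IL2RA stood at 46.9 and 42.9 against 127 and 64.0. edgeR called 0 of the 9 genes tested (0.0384% of all genes were called higher and 0.173% lower, and 196 had an unadjusted p under 0.05), and DESeq2 called no gene at all.

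Cycling T cells, with at least 2 UMIs of TOP2A and MKI67 together, had 1 of the 10 genes called against other T cells, HAVCR2. They numbered 35, 31, 35, 58, 23 and 11, which was 1.87% and 1.88% of T cells at days 0 and 1 and 6.18% to 13.4% later. Their median depth was 12019, 12867, 9716, 10843, 7858 and 5101 UMIs by age. In the other T cells it was 3499, 4161, 4227, 3940, 2867 and 2575. The part of depth in the differences below was not tested, since thinned cycling cells could not be fitted. HAVCR2 stood at 4.39, 4.44, 19.7, 43.1, 23.5 and 30.9 CPM in cycling cells and 1.06, 1.85, 1.999, 12.8, 8.91 and 16.9 in the others. With days 0 and 1 read as background, it was higher in cycling cells in 4 of 4 libraries. The log2 difference was 1.69 (SE 0.42, edgeR adjusted p = 0.0031), where 7.07% of the 12586 genes were called higher and 8.73% lower. The HAVCR2 difference rests on 4, 2, 8, 28, 5 and 2 UMIs, and without day 7 the edgeR adjusted p was 0.048. Without days 0 and 1, a setting added after the levels had been seen, it was 1.79 (edgeR adjusted p = 0.00016). TIGIT was then also called higher (0.82) and FOXP3 lower (-1.57). This FOXP3 call rests on 2, 1, 4 and 0 UMIs in cycling cells at days 3, 7, 14 and 21. At day 14 FOXP3 was higher in cycling cells, at 18.8 against 4.45 CPM. Markers of myeloid cells, the lineage richest in HAVCR2, summed to 1.1, 44.4, 2.5, 0, 0 and 0 CPM in cycling cells and 9.3, 41.4, 1.3, 1.1, 7.1 and 0 in the others.

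PDCD1, LAG3, CTLA4 and ICOS were not called in cycling cells. PDCD1, for example, stood at 2.20, 0, 27.1, 236, 301 and 278 CPM in cycling cells by age. In the others it stood at 5.39, 13.6, 20.7, 230, 248 and 201. TOX (-0.48, edgeR adjusted p = 0.0518) and CD28 (-1.23, adjusted p = 0.0508) lay just outside the threshold, and were called lower under several alternatives. Among the other lists, 7 of 8 naive and recirculating genes were called lower in cycling cells (median -1.23 against -0.10 for all genes), as were 8 of 12 signalling genes below the receptors, LCK and LAT among them. Without day 0 the counts were 7 of 8 (median -1.05) and 5 of 12, and without days 0 and 1 they were 7 of 8 and 4 of 12, with LCK and LAT no longer called. The cycling cells of day 0 held 125 CPM of the T cell markers and 2007 of the epithelial markers, against 488.5 and 643 in the other T cells of that library, and without that library HAVCR2 kept its call.

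T cells with a FOXP3 UMI had more of most of the other 9 genes. FOXP3 was found in 21, 30, 14, 28, 7 and 4 T cells, 104 in all, and the 4 libraries of days 0 to 7 had enough of them for the test. edgeR called IL2RA, CTLA4, TIGIT, PDCD1, LAG3 and ICOS higher, 6 of 9, where 0.504% of the 12504 genes tested were higher and 2.45% lower, and none lower. FOXP3 itself defined the classes and is no result.

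IL2RA was the steadiest of these. It stood at 211, 209, 238 and 240.3 CPM in FOXP3+ cells at days 0, 1, 3 and 7 and at 34.4, 78.8, 73.4 and 70.9 in the other T cells. It was higher in FOXP3+ cells in each of these libraries, with a log2 difference of 1.52 (SE 0.24, edgeR adjusted p = 3.7e-08). At days 14 and 21, which had too few FOXP3+ cells for the test, the values were 247 against 53.5 and 92.7 against 28.5. IL2RA thus stood at much the same level in FOXP3+ cells from birth to day 14, and at days 0 to 14 between 42.9% and 57.1% of FOXP3+ cells had a UMI of it, against 7.51% to 19.6% of the other T cells.

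CTLA4 stood at 58.7, 215, 0 and 58.8 CPM in FOXP3+ cells and at 1.07, 2.15, 1.09 and 24.4 in the others, a log2 difference of 3.92 (SE 0.49, edgeR adjusted p = 6.6e-13). At day 1, 36 of the 54 CTLA4 UMIs of all 1653 T cells were in the 30 FOXP3+ cells. At day 7, 11 of 66 were. The 54 UMIs of day 1 lay in 25 T cells, with 29 of them in 6 CD4+ cells. The day 1 library carries much of the contrast, and without it the difference was 2.17 (adjusted p = 0.180).

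PDCD1 stood at 82.2, 108, 25.02 and 347 CPM in FOXP3+ cells against 4.38, 11.0, 21.9 and 222 (log2 difference 1.56, edgeR adjusted p = 0.0001). TIGIT stood at 47.0, 41.9, 25.02 and 58.8 against 1.92, 0.597, 9.85 and 43.9. TIGIT (2.01, edgeR adjusted p = 0.0091), LAG3 (1.39, adjusted p = 0.00058) and ICOS (1.10, adjusted p = 0.014) were also called, with LAG3 higher in 2 of 4 libraries only. Values for TOX (0.44), CD28 (0.40) and HAVCR2 (0.32) did not pass. Without the day 1 library IL2RA alone was called, and the differences were 1.05 for PDCD1, 0.88 for LAG3, 1.14 for TIGIT and 0.92 for ICOS. Without day 0 TIGIT (1.55) and ICOS (0.84) lost their calls, and without day 7 LAG3 did (1.60). Without days 0 and 1 together, which left 2 libraries, IL2RA and LAG3 were called. DESeq2 called IL2RA and CTLA4. Stromal markers summed to 435 and 239 CPM in FOXP3+ cells at days 0 and 1 and to 44.2 and 41.0 in the others, and with every cell holding a UMI of another lineage left out PDCD1 lost its call (1.03, adjusted p = 0.209) while IL2RA and CTLA4 did not.

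Most of the regulatory T cell partners were higher in FOXP3+ cells. Of 14 tested, 8 were called higher, led by IL10 (3.49, an inhibitory cytokine), IKZF4 (Eos, 3.21, a FOXP3 cofactor), CCR4 (2.38), TNFRSF18 (GITR, 2.27) and TNFRSF4 (1.77), with a median of 1.57 against -0.27 for all genes. Of the 8, 7 were also called higher in PDCD1+ cells, given below, all but IKZF4. In CD4+ against CD8A+ cells TNFRSF4, TNFRSF18, IL10, CCR4 and BATF were called higher too. FOXP3+ cells were not compared within CD4+ cells alone. ENTPD1 was called lower, and IKZF2, often used as a marker of thymic regulatory cells, did not differ beyond its error (-0.05, SE 0.21, edgeR adjusted p = 0.974). Of 8 naive and recirculating genes 5 were called lower, among them IL7R (-1.94) and SATB1 (-2.21), and of 13 cytotoxic genes 8 were, with CCL5 at -2.41 and NKG7 at -1.60. The same 8 cytotoxic genes were called lower in PDCD1+ cells. Without days 0 and 1, 4 of 12 partners were called higher, CCR4 and IL10 not among them, 1 of 8 naive and recirculating genes lower, IL7R, and 5 of 11 cytotoxic genes lower. Without day 1 the naive and recirculating genes called lower were 3, as without day 7. ENTPD1 was not called without day 1 or 7.

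T cells with a PDCD1 UMI carried more LAG3, CTLA4, TIGIT, ICOS, FOXP3 and IL2RA than the other T cells of their library. They numbered 36, 87, 25, 169, 117 and 51, 485 in all. Each of these genes other than FOXP3 was higher in 6 of 6 libraries, and edgeR called 6 of 9 higher and none lower, where 2.49% of the 12587 genes were higher and 4.77% lower. PDCD1 defined the classes and is no result.

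LAG3 stood at 9.04, 29.3, 50.7, 373, 242 and 462 CPM in PDCD1+ cells and 3.36, 9.67, 19.2, 179.6, 136 and 168 in the others (log2 difference 1.17, SE 0.16, edgeR adjusted p = 5.9e-07). TIGIT stood at 18.1, 12.1, 38.0, 69.1, 68.6 and 119.7 against 1.95, 0.628, 6.59, 20.05, 11.5 and 16.6 (2.54, edgeR adjusted p = 1.0e-08). CTLA4 stood at 9.04, 56.9, 4.23, 36.9, 50.6 and 62.7 against 1.41, 2.64, 0.599, 16.7, 6.40 and 22.1 (2.57, edgeR adjusted p = 1.5e-06). In CPM all 3 were higher in PDCD1+ cells in each library, in some from few UMIs. At day 0 the 36 PDCD1+ cells held 2 LAG3 UMIs and 2 CTLA4 UMIs. All T cells together held 12 TIGIT UMIs at day 1 and 2 CTLA4 UMIs at day 3.

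ICOS stood at 58.8, 60.4, 76.1, 161, 181 and 308 CPM in PDCD1+ cells and 16.3, 27.6, 26.9, 86.0, 48.6 and 127 in the others (1.32, edgeR adjusted p = 7.8e-08). IL2RA stood at 104, 152, 114, 95.5, 83.1 and 62.7 against 34.4, 76.2, 75.4, 71.8, 43.5 and 13.8 (0.89, edgeR adjusted p = 0.00027). FOXP3 was higher in 5 of 6 libraries (2.29, edgeR adjusted p = 0.00013) but was not called by DESeq2. TOX did not differ beyond its error (0.19, edgeR adjusted p = 0.515), and HAVCR2 (1.01, adjusted p = 0.227) and CD28 (1.01, adjusted p = 0.063) did not pass. With cells limited to CD4+ T cells, which 2 libraries allowed, only IL2RA was called, and with cells thinned to 1000 UMIs, which left 3 libraries, none was and the CTLA4 difference turned to -0.24.

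**Figure D4:**
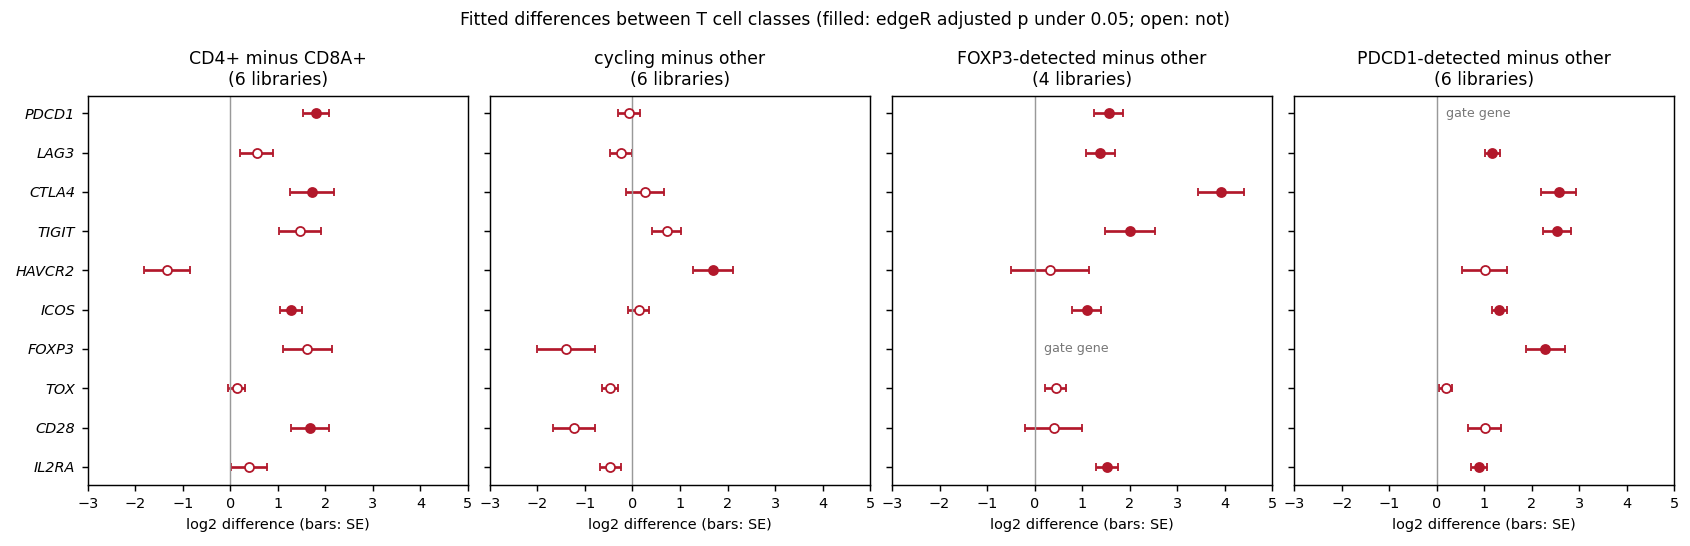
Fitted log2 difference of each gene between T cell classes of the same libraries, with bars of 1 standard error, from edgeR with the library as a block. Filled points passed an adjusted p of 0.05. IL2RA and CTLA4 are higher in FOXP3+ cells by 1.52 and 3.92, HAVCR2 is the gene called in cycling cells (1.69), and PDCD1 and ICOS are higher in CD4+ than in CD8A+ cells by 1.81 and 1.29.

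In single cells the overlap of PDCD1 and LAG3 became common. The share of PDCD1+ cells that also had a LAG3 UMI was 5.56%, 10.3%, 28.0%, 62.7%, 44.4% and 51.0% by age, against 1.36%, 2.62%, 4.01%, 26.6%, 21.2% and 21.3% of the other T cells. At day 7 these were 106 of 169 cells. PDCD1+ cells were deeper than the gate as a whole, with medians of 3889.5, 5647, 5216, 5694, 3624 and 2778 UMIs, and the part of depth in these shares was not tested. At day 7 a PDCD1 UMI was found in 31 of 45 CTLA4+ cells (68.9%) against 35.7% of the other T cells, and in 22 of 28 FOXP3+ cells (78.6%) against 36.4%.

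Among the follicular helper and TOX-related genes, 3 of 12 were called higher in PDCD1+ cells: TOX2 (2.24), CXCR5 (1.83), the receptor that brings T cells into follicles, and MAF (1.68), a regulator of IL-21 and IL-10. CXCL13 and ID3 were called lower, and BCL6, the factor that defines follicular helper cells, did not differ beyond its error (-0.02, SE 0.17, edgeR adjusted p = 0.974). Of 14 regulatory partners 7 were called higher, with TNFRSF18 at 2.05 and BATF at 1.48, and 2 lower, IKZF2 (-0.78) and TGFB1 (-0.49). The list's median was 0.99, against -0.10 for all genes. Among 13 cytotoxic genes IFNG, the effector cytokine, was called higher (2.85) and 8 were called lower, KLRK1 (-3.17) and CCL5 (-2.47) among them. MAF and ID3 lost their calls without day 0, 7 or 14, CXCL13 without day 1, IFNG without day 1 and TGFB1 without day 0, 3, 14 or 21. Without days 0 and 1, 4 of 13 regulatory partners were called higher, and 2 of 10 follicular helper genes higher and none lower. None of the 9 interleukin-2 and gamma chain genes tested was called in PDCD1+, FOXP3+ or cycling cells, and 0 to 2 were called lower in cycling cells when a library was left out.

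Across 19 sums of T cells by library and coreceptor class, the genes whose log2 level was most like that of PDCD1 were POU2AF1 (Pearson r = 0.968), NDFIP2 (0.967) and ICOS (0.958). For LAG3 they were ARF3 (0.967), MIEN1 (0.957) and PVRIG (0.941), for TIGIT TNIP2 (0.949), PDCD1 (0.948) and SSU72 (0.942), and for CTLA4 CCND2 (0.912), GRAMD2B (0.909) and IL10 (0.879). HAVCR2 was most like SGO1 (0.855), a gene of chromosome segregation. CD28 was most like CD4 (0.763), which was used to split these sums and is no result, and next TSPO (0.763). IL2RA had no close match, its highest being ADI1 (0.712). These values are descriptions over 9787 genes, and sums of 1 library share its age, depth and free RNA.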

How the data were processed

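Single-cell 3′ libraries of 6 ages were sequenced by the authors, who ran Cell Ranger 3.1.0 with STAR on susScr11, per the submitters' processing notes, and deposited raw UMI count matrices of all 6794880 barcodes for each library. The methods describe 5 piglets per age and do not say how they were combined into a library. The labels give kit V3 and the methods version 2, and the series text names cecum where the labels name ileum, which was used here. The 10 genes, the gene lists and the gates were chosen with earlier results of these data known. Named genes are the 10 genes, genes of those lists and, for each of the 10, the 3 genes of highest correlation.

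Counts of barcodes with at least 1000 UMIs and 500 genes were summed per library and cell class. Other lineages needed at least 2 UMIs of their own markers (stromal 3) with no CD3E, CD3G, MS4A1 or PAX5, and B cells at least 2 of MS4A1 and PAX5 with no CD3E or CD3G. No doublet caller was run. Doublets were treated through the gates, and an alternative left out cells with any UMI of another lineage's markers. Sums of at least 10 cells and genes with at least 20 UMIs were tested with edgeR 4.0.16 (glmQLFit and glmQLFTest, TMM, R 4.3.3) with the library as a block, since both classes of a pair came from the same library, and Benjamini-Hochberg adjustment over all genes at 0.05. Ages were not tested. Levels thinned to 1000 UMIs per cell, a stricter cell filter, another gate, a mitochondrial limit of 25%, DESeq2 1.42.0 with its size factors, no filter on low counts, no block, at least 20 cells, and leaving out each library were the alternatives, beside an exact sign-flip permutation over libraries. Tested on simulated counts with 4-fold changes in about the real libraries, edgeR recovered 89.18% of 194 changed genes between CD4+ and CD8A+ cells, 77.39% of 199 between cycling and other cells, 54.77% of 199 for FOXP3 and 73.98% of 196 for PDCD1. Of its calls 1.70%, 1.91%, 7.63% and 4.61% were false, and 6.47% between T and B cells. The shares recovered hold for 4-fold changes over all genes tested. They give no rate for smaller changes or for genes of few UMIs. Correlations used log2 of CPM plus 10. No sequence is printed, and 1 further lymphoid class is not reported here.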

Additional observations from a re-analysis of the deposited data

Results flagged for a closer look

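Of 50 within-library differences over 6 libraries that were checked for a library far from the others, 2 stood out. The rule is set to mark about 1 in 20 by chance, a rate not measured in these data. PDCD1 in CD4+ against CD8A+ T cells was -0.49 on the log2 scale (10 CPM added to each level) at day 3, where the other 5 libraries ran from 1.19 to 2.19. FOXP3 in CD4+ against CD8A+ T cells was 1.74 at day 7, where the other 5 libraries ran from 0 to 0.62. The day 3 value rests on 67 CD4+ and 52 CD8A+ cells.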

How the results depend on the processing

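All 10 genes stayed higher in T than in B cells under every alternative fitted, and 9 passed the exact sign-flip test, whose smallest possible p is 0.03125 over 6 libraries. The 4 calls in CD4+ cells became 2 with DESeq2, 0 without the library block, 0 with thinned cells and 3 to 4 (2 to 3 of the 4 genes) when a library was left out. In cycling cells the 1 call became 2 with the stricter cell filter, 2 with at least 3 CD3 UMIs, 2 with DESeq2 size factors, 5 with genes of 1 UMI, 3 with at least 20 cells, 3 under the mitochondrial limit, 2 without mixed cells, 0 without the block, 3 without days 0 and 1 together (added after seeing the data) and 2 to 3 without a library, HAVCR2 among them each time a library was left out. Of 6 calls in FOXP3+ cells 2 were left with DESeq2, 0 without the block, 0 by the sign-flip test (smallest possible p 0.125), 2 without days 0 and 1 and 1 to 6 without a library. The 6 in PDCD1+ cells became 5 with DESeq2, which lost FOXP3, and 0 without the block. They became 1 in CD4+ cells alone, 0 with thinned cells and 6 to 7, all 6 genes and CD28, without a library.

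Of 877 tests of single genes under alternatives, 759 kept direction and side of the threshold and 24 changed direction, 1 of them a called gene, CTLA4 in thinned PDCD1+ cells (-0.24). The others were of genes not called. In thinned cells TOX turned to -0.40 between CD4+ and CD8A+ cells and -0.10 in PDCD1+ cells. ICOS between CD4+CD8A+ and CD4+ cells turned to 0.011 with the stricter cell filter and 0.0060 with DESeq2. In cycling cells PDCD1 turned to 0.091 without the block, 0.21 without days 0 and 1, 0.13 without mixed cells and 0.017 with 1 cycling UMI, CTLA4 to -0.032 with 1 cycling UMI, and ICOS to -0.24 with the stricter filter, -0.021 with genes of 1 UMI, -0.25 with at least 20 cells, -0.25 under the mitochondrial limit and -0.00722 with 1 cycling UMI. Leaving out a library gave -0.00861 to 0.23 for TOX and -0.18 to 0.81 for IL2RA between CD4+ and CD8A+ cells, -0.34 to 0.089 for PDCD1, -0.26 to 0.51 for CTLA4 and -0.25 to 0.33 for ICOS in cycling cells, and -0.23 to 0.53 for HAVCR2 in FOXP3+ cells.

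Over all genes, calls higher and lower went from 104 and 213 between CD4+ and CD8A+ cells to 60 and 121 with DESeq2, 4 and 60 without the block, 182 and 309 with genes of 1 UMI and 150 and 342 without day 1. They went from 890 and 1099 in cycling cells to 366 and 119 without the block, 787 and 653 without days 0 and 1, 472 and 801 without mixed cells and 692 and 1719 with genes of 1 UMI. In FOXP3+ cells 63 and 306 became 84 and 159 with DESeq2 size factors, 31 and 40 with DESeq2, 0 and 0 without the block, 24 and 75 without day 1, 18 and 55 without days 0 and 1 and 30 and 150 without mixed cells. In PDCD1+ cells 314 and 601 became 420 and 479 with DESeq2 size factors, 265 and 216 with DESeq2, 481 and 584 without days 0 and 1 and 3 and 43 without the block. The cause was not tested. Gene lists were refitted without each library after seeing the data. FOXP3+ and cycling cells could not be fitted with thinned cells, nor the CD4+CD8A+ class with thinned cells, at least 20 cells or a library left out.

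By age, 249 of 300 levels moved by less than their interval. Depth limits CTLA4, TIGIT, HAVCR2, FOXP3 and CD28, with 117 to 330 UMIs each in all T cells. Ages have no replicate error, with 1 library each.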

Other observations

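The ligands of the checkpoint receptors were mostly highest outside T cells. CD274 (PD-L1), a ligand of PD-1, stood at 105 CPM in myeloid cells summed over all ages, against 7.35 in T cells and 2.20 in B cells. PDCD1LG2 (PD-L2) was rare everywhere, with 5.47 in myeloid cells. CD86, which binds CD28 and CTLA4, stood at 128 in myeloid cells and 83.3 in B cells, and in B cells it was 15.5, 21.7, 28.7, 60.1, 105 and 138 from day 0 to day 21. CD80, its partner ligand, stood at 35.8 in myeloid cells, 12.1 in T cells and 6.78 in B cells.

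ICOSLG, the ligand of ICOS, was found in stromal, myeloid and B cells, in an order that differed between ages. It stood at 182, 102 and 116 CPM in them at day 0, at 142, 126 and 163 at day 1, and at 43.0, 91.4 and 124 at day 3. In B cells it was 116, 163, 124, 126, 71.6 and 59.1 by age, lower at days 14 and 21 than at any earlier age. NECTIN2, a ligand of TIGIT, stood at 95.1 in endothelial and 86.7 in epithelial cells, NECTIN3 at 56.7 in epithelial and 55.8 in stromal cells, against 13.5 and 11.4 in T cells. LGALS9, a ligand of TIM-3, stood at 163 in epithelial, 138 in endothelial, 115 in myeloid and 56.9 in T cells, and CEACAM1 at 43.0 in epithelial cells. FGL1, a ligand of LAG3, had 1.16 in epithelial cells. PVR was not analysed here. Values over all ages mix libraries in which the lineages were unequally common, and neither ages nor lineages were compared by a test.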
